A study of Mus musculus with 8 samples.

Results

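The genes of the smooth muscle contractile apparatus (Acta2, Actg2, Tagln, Cnn1, Myl9, Myh11, Cald1, Smtn, Lmod1 and Mylk) were followed in cultured mesenchymal stromal cells (MSCs) of mouse. These 10 of the 54116 genes in the deposited table were listed by function, with earlier results of these data known. Of them, 9 were among the 13345 genes that averaged 1 FPKM or more over the 8 libraries and were tested. FPKM (fragments scaled by transcript length and by the number of mapped fragments) were summed over the transcripts of each gene. MSCs from the pancreas (pMSCs, 4 libraries) were compared with MSCs from inguinal white adipose tissue (iwatMSCs, 4 libraries), a subcutaneous fat depot. Both groups came from untreated adult male C57BL/6J mice. By the study's design both organs were taken from the same mice. No source links single libraries of the organs, so the groups were tested as unpaired and any pairing was ignored. Cells were sorted as CD31-/CD45-/SCA1+ (negative for an endothelial and a leukocyte surface protein and positive for a stromal progenitor protein), and those of several mice were then pooled, expanded for 4 days and used for sequencing of mRNA. Whether each library had its own pool of mice is not stated, and p-values therefore measure only the spread between these libraries.

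Smooth muscle cells contract when calcium-bound calmodulin activates myosin light chain kinase, which phosphorylates the regulatory light chain of myosin and lets myosin pull on actin filaments. Fibroblasts that become myofibroblasts switch on part of this gene set, above all the smooth muscle actin Acta2, and mature smooth muscle is told from them by late genes such as the myosin heavy chain Myh11. Many of these genes are controlled by serum response factor, which binds a short element called the CArG box together with cofactors of the myocardin family.

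Total FPKM of a library lay between 437894 and 458616, with 13092 to 13313 genes at or above 1 FPKM, and the depth in reads is unknown. Pecam1, which encodes CD31, averaged 0.246 FPKM in pMSCs and 0.176 FPKM in iwatMSCs, and Ptprc, which encodes CD45, averaged 0.0109 and 0.00907 FPKM. Ly6a, which encodes SCA1, averaged 84.9 and 148 FPKM. Since these are bulk samples, fewer cells with a contractile phenotype and less contractile RNA per cell cannot be told apart.

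Promoter stretches are shown first for the 3 members that held at least a pair of exact or near matches to the CArG box, as the element that the group is known to share. RefSeq promoters (build GRCm38.p6) were matched for 7 of the 10 members (Acta2, Cnn1, Myl9, Cald1, Smtn, Lmod1 and Mylk) in 8 windows of 250 bases before a start site. The Mylk window (chr16:34784700-34784949) is near the start of its long transcript. The start of its short transcript, at 34994807, was not searched, although that transcript held 67.6% of Mylk FPKM. The CArG box was searched on both strands, exactly or with at most 1 mismatch, and capitals mark the matches. Acta2 is shown at chr19:34255374-34255487 on the minus strand, Myl9 at chr2:156775273-156775404 on the plus strand and Lmod1 at chr1:135324594-135324688 on the plus strand, each 5′ to 3′ along its gene.
Acta2: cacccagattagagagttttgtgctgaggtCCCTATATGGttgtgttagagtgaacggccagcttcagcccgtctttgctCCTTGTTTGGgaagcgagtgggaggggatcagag
Myl9: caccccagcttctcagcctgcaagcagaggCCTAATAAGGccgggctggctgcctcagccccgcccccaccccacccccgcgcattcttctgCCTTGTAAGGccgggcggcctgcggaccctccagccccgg
Lmod1: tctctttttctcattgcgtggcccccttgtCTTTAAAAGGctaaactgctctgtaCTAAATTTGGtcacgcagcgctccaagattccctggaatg
The first match in Myl9 was exact, at 161 to 152 bases before the start site, and the other matches in these stretches had 1 mismatch. Exact matches were found in 1 of the 7 members against 1.47% of 32851 promoters, and matches with at most 1 mismatch in 4 of the 7 (these 3 and Cald1) against 18.6%. The TATA sequence TATAAA was found in 1 of the 7 members, Cald1, against 12.4% of promoters, and GGAATG, a core of elements bound by TEAD factors, in 5 of the 7 against 12.6%. GGAATG did not overlap the CArG matches shown.

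Most of the contractile genes were higher in pMSCs. By limma on log2(FPKM + 1), with p-values adjusted over all 13345 genes, 7 of the 9 tested members were higher in pMSCs (9.02% of all genes tested were) and 0 were lower (10.4% of all genes, 19.4% in either direction). At an unadjusted p under 0.05, and by the unequal-variance test on FPKM or log2(FPKM + 1), 0 members were lower as well. Their median log2 fold change was 1.73, against -0.03 over all genes tested. In these 7 genes every pMSC library lay above every iwatMSC library, as it did in 10.9% of all genes tested. Of the 7, Lmod1 averaged 0.532 FPKM in iwatMSCs and was tested only through its pMSC level. Cnn1 and Cald1 did not pass the test, and Myh11 averaged too little to be tested. Without pMSC replicates 1 and 2, libraries left out after their high contractile and acinar values had been seen, 5 of the 9 were called higher. By an unequal-variance test, here run on gene sums and adjusted over all genes, 0 members passed on FPKM and 5 on log2(FPKM + 1). The study's methods applied that test to transcripts without adjustment.

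**Figure D1:**
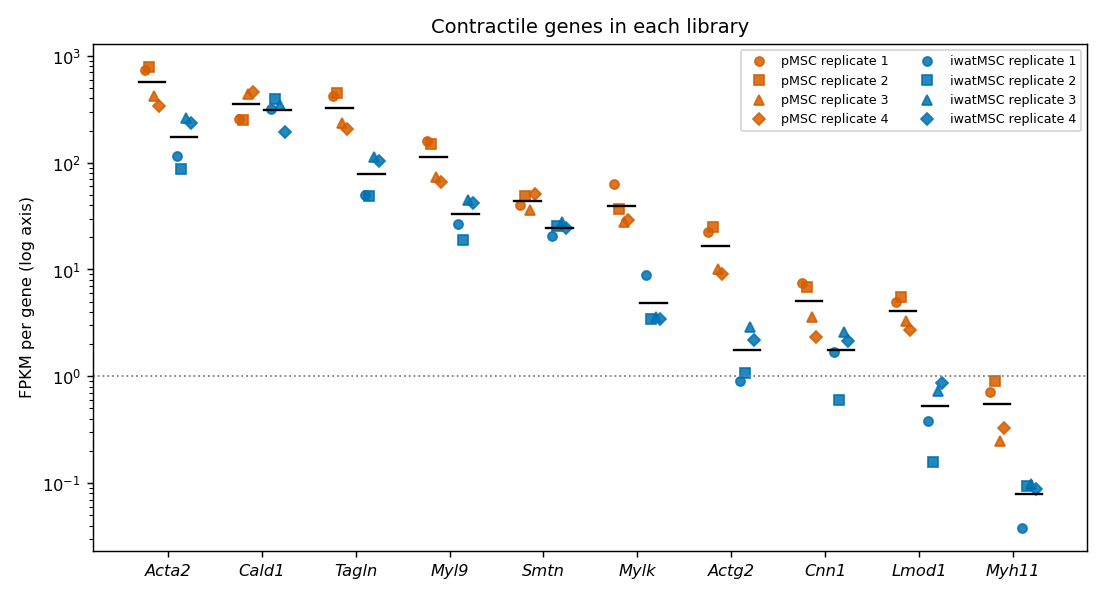
FPKM of the 10 contractile genes in each library on a log axis, with pMSC libraries in orange, iwatMSC libraries in blue, one symbol per replicate number and a black bar at the group mean. The 2 groups are separate in every gene but Cnn1 and Cald1, and the dotted line marks the 1 FPKM limit on the mean, below which Myh11 lies.

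The levels of the 10 genes spanned from the most abundant actin to a myosin that was close to absent. In pMSCs the order by mean FPKM was Acta2, Cald1, Tagln, Myl9, Smtn, Mylk, Actg2, Cnn1, Lmod1 and Myh11. The neighbours Acta2 and Cald1, Cald1 and Tagln, Smtn and Mylk, and Cnn1 and Lmod1 overlapped in their ranges over the 4 libraries. In iwatMSCs Cald1 came first and the other genes kept that order. There the ranges of Cald1 and Acta2, Acta2 and Tagln, Myl9 and Smtn, Actg2 and Cnn1, and Cnn1 and Lmod1 overlapped.

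The 2 smooth muscle actins form the thin filament. Acta2, the vascular smooth muscle actin and the usual marker of myofibroblasts (ENSMUSG00000035783, chromosome 19, 34241090 to 34255590), was at 743, 786, 425 and 343 FPKM in pMSC replicates 1 to 4 and at 116, 87.9, 261 and 235 FPKM in iwatMSC replicates 1 to 4. The lowest pMSC library stood only slightly above the highest iwatMSC library. The means were 574 ± 223 and 175 ± 85.8 FPKM (SD, n = 4), from 1 of 2 annotated transcripts, and the log2 fold change was 1.77 ± 0.39 (SE, limma adjusted p = 0.0136). Without pMSC replicates 1 and 2 it was 1.27 and did not pass (limma adjusted p = 0.121).

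Actg2, the actin of visceral and enteric smooth muscle (ENSMUSG00000059430, chromosome 6, 83512905 to 83536265), was at 22.4, 24.8, 10.1 and 9.14 FPKM in the pMSC libraries and at 0.906, 1.07, 2.92 and 2.20 FPKM in the iwatMSC libraries. It was far less abundant than Acta2 in each library, and the groups were well apart. The log2 fold change was 2.61 ± 0.36 (SE, limma adjusted p = 9.91e-04), and the ratio of the group means was 9.38. The coding sequences of Acta2 and Actg2 were 84.2% identical with a longest shared run of 29 bases. Those of Acta2 and the cytoplasmic actin Actb were 82.8% identical with a longest shared run of 47 bases. Whether reads of one actin were assigned to another was not tested.

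Calponin and transgelin bind along the actin filament. Tagln, which encodes transgelin (also called SM22, ENSMUSG00000032085, chromosome 9, 45929619 to 45936058), was at 422, 445, 234 and 208 FPKM in pMSCs and at 49.4, 48.4, 113 and 105 FPKM in iwatMSCs. All 4 pMSC libraries were higher, with means of 327 ± 123 and 78.9 ± 34.8 FPKM and a log2 fold change of 2.07 ± 0.36 (SE, limma adjusted p = 0.00369). Gm48529, an annotated antisense gene over Tagln, was at 204, 218, 106 and 109 FPKM in pMSCs and at 22.9, 21.4, 55.8 and 39.6 FPKM in iwatMSCs. No source gives the strand setting of the counting, and reads from any bases that both genes share may not have been told apart. The same holds for Pcsk7 at Tagln, Gm11946 at Smtn and Gm21691 at Mylk, which averaged 6.95, 5.95 and 2.92 FPKM over the 8 libraries. Overlap was taken from the spans of whole genes, and whether exons are shared was not examined.

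Cnn1, which encodes the smooth muscle calponin that holds back myosin on actin (ENSMUSG00000001349, chromosome 9, 22099216 to 22109630), was at 7.45, 6.86, 3.58 and 2.33 FPKM in pMSCs and at 1.69, 0.598, 2.60 and 2.15 FPKM in iwatMSCs. The groups overlapped, as pMSC replicate 4 was below iwatMSC replicate 3. The log2 fold change of 1.09 ± 0.34 (SE) did not pass the test (limma adjusted p = 0.0532), but it did with quantile normalization (0.0472), with array weights (0.0390) and without pMSC replicate 4 (0.0240).

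The motor and its light chain were measured at very different levels. Myl9, the regulatory light chain that is phosphorylated to start contraction (ENSMUSG00000067818, chromosome 2, 156775420 to 156781658), was at 160.4, 148, 73.6 and 65.6 FPKM in pMSCs and at 26.4, 18.8, 44.6 and 41.9 FPKM in iwatMSCs. The groups did not overlap, and the log2 fold change was 1.70 ± 0.36 (SE, limma adjusted p = 0.0100). Without pMSC replicates 1 and 2 its log2 fold change was 1.13 and no longer passed (limma adjusted p = 0.0753). Its coding sequence was 85.7% identical to that of Myl12a and 86.4% to that of Myl12b, with a longest shared run of 35 bases in both cases.

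Myh11, the smooth muscle myosin heavy chain (ENSMUSG00000018830, chromosome 16, 14194535 to 14291372), was at 0.706, 0.907, 0.2495 and 0.3285 FPKM in pMSCs and at 0.0381, 0.0943, 0.0985 and 0.0874 FPKM in iwatMSCs. Every pMSC library was above every iwatMSC library, yet all 8 stayed below 1 FPKM. With no filter on low values its log2 fold change was 0.50 and did not pass (limma adjusted p = 0.0530), on a scale where the pseudocount of 1 is larger than the values.

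With the pseudocount of 1, myosin light chain kinase showed the largest log2 fold change of the 9 tested members. With a pseudocount of 0.1 that of Actg2 was larger (3.17 against 3.05 for Mylk). Mylk (ENSMUSG00000022836, chromosome 16, 34745210 to 35002420) was at 62.7, 36.9, 28.1 and 29.0 FPKM in pMSCs and at 8.79, 3.40, 3.62 and 3.43 FPKM in iwatMSCs. Replicate 1 was the highest library of each group, and the lowest pMSC library was still well above the highest iwatMSC library. The log2 fold change was 2.81 ± 0.32 (SE, limma adjusted p = 3.35e-04), and the ratio of the means was 8.14.

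The remaining members bind or build the thin filament. Smtn, which encodes the cytoskeletal protein smoothelin (ENSMUSG00000020439, chromosome 11, 3517523 to 3540612), was at 40.1, 49.1, 36.4 and 50.8 FPKM in pMSCs and at 20.5, 25.3, 28.1 and 24.4 FPKM in iwatMSCs. It varied least within the groups, by a factor of 1.39 in pMSCs and 1.37 in iwatMSCs from lowest to highest library, and its log2 fold change of 0.81 ± 0.13 (SE) passed (limma adjusted p = 0.00221). Lmod1, which encodes the smooth muscle leiomodin that nucleates actin filaments (ENSMUSG00000048096, chromosome 1, 135324807 to 135368065), was at 4.96, 5.50, 3.27 and 2.73 FPKM in pMSCs and at 0.379, 0.158, 0.7285 and 0.863 FPKM in iwatMSCs. Lmod1 passed (log2 fold change 1.73 ± 0.21 SE, limma adjusted p = 5.91e-04), but it averaged under 1 FPKM in iwatMSCs and was tested only through its pMSC level.

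Cald1, which encodes the actin- and calmodulin-binding caldesmon (ENSMUSG00000029761, chromosome 6, 34598500 to 34775473), was at 257, 252, 439 and 454 FPKM in pMSCs and at 319, 395, 348 and 193 FPKM in iwatMSCs. The groups overlapped almost wholly, and the log2 fold change of 0.15 ± 0.27 (SE, 95% interval -0.45 to 0.76) did not pass (limma adjusted p = 0.741). Its direction rested on single libraries, since it was -0.064 without iwatMSC replicate 4.

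The broadly expressed relatives of these proteins, which serve the cytoskeleton of most cells, had smaller log2 fold changes than most of the members. Of 11 relatives tested, 3 were higher in pMSCs (Myh9, Myl6 and Tagln2) and 1 was lower (Tmod3), with a median log2 fold change of 0.03. Myh9, the nonmuscle myosin heavy chain, was at 199.6, 222, 215 and 219 FPKM in pMSCs and at 134, 127, 142 and 151 FPKM in iwatMSCs, a log2 fold change of 0.63 ± 0.07 (SE, limma adjusted p = 3.20e-04). Nonmuscle Myh9 was above Myh11 in all 8 libraries. The cytoplasmic actins Actb and Actg1 did not pass, with log2 fold changes of -0.26 ± 0.15 and 0.03 ± 0.11 (SE).

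**Figure D2:**
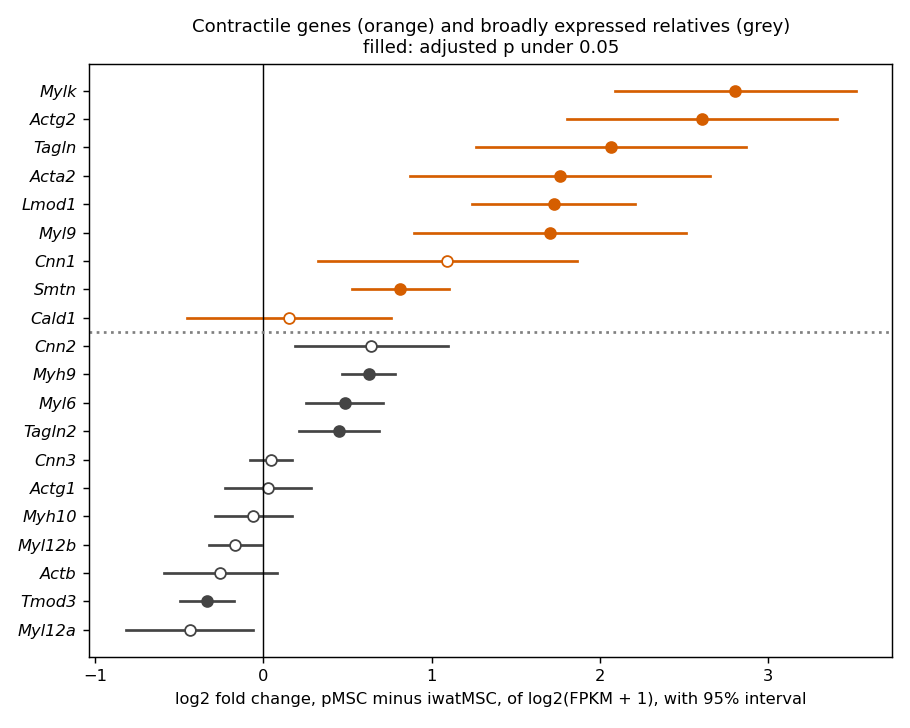
Log2 fold changes of log2(FPKM + 1), pMSC minus iwatMSC, for 9 contractile genes (orange, above the dotted line) and 11 broadly expressed relatives (grey), with 95% intervals from limma and filled points for adjusted p under 0.05. The contractile genes reach from 0.15 for Cald1 to 2.81 for Mylk, while the relatives lie between -0.44 for Myl12a and 0.64 for Cnn2.

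Muscle forms were also set against a relative within the same library. The log2 ratio of Acta2 to Actb, each with a pseudocount of 1, was -1.69, -1.35, -1.81 and -2.66 in the pMSC libraries and -4.16, -4.65, -3.34 and -3.45 in the iwatMSC libraries. Acta2 was thus below Actb in all libraries, and the distance was smaller in pMSCs by 2.02 on the log2 scale. The ratio differences of Actg2 to Actg1 (2.58), Tagln to Tagln2 (1.62), Myl9 to Myl12a (2.14) and Lmod1 to Tmod3 (2.06) were in the same direction, also with no overlap. In a two-sided exact permutation test these 5 ratios had p = 0.0286, the smallest p that 4 against 4 libraries allow, and an adjusted p of 0.0457 over the 8 ratios compared. Tagln exceeded Tagln2 in pMSC replicates 1 to 3, while in iwatMSCs it was the less abundant form in each library. The ratios of Cnn1 to Cnn3 (1.05, exact permutation adjusted p = 0.0762) and of Cnn1 to Cnn2 (0.45, exact permutation adjusted p = 0.163) did not pass. The ratio of Myh11 to Myh9 differed by -0.13 with the pseudocount of 1 and by 1.10 with one of 0.1, so its direction is set by the pseudocount.

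The deposited table gives values per transcript, and for Mylk these separated a long and a short product. Mylk-201, the long transcript with a coding length of 5850 bases (chromosome 16, 34784921 to 35002420), was at 13.0, 15.2, 13.1 and 12.1 FPKM in pMSCs and at 1.46, 0.787, 0.557 and 0.557 FPKM in iwatMSCs. The pMSC values were close to one another, and the log2 fold change was 2.99 ± 0.17 (SE). Mylk-201 averaged 0.841 FPKM in iwatMSCs and was tested only through its pMSC level. Mylk-203, with a coding length of 477 bases (chromosome 16, 34994807 to 35001363), lies at the 3′ end of the gene, the part from which smooth muscle makes the small myosin-binding protein telokin. It was at 49.7, 21.6, 14.9 and 16.8 FPKM in pMSCs and at 7.33, 2.62, 3.06 and 2.88 FPKM in iwatMSCs, with replicate 1 standing out in each group (log2 fold change 2.35 ± 0.42 SE, limma adjusted p = 0.0177 over all transcripts). In pMSC replicate 1 the high Mylk value was that of the short transcript, whereas in iwatMSC replicate 1 both transcripts were the highest of their group. Without pMSC replicate 2 or without iwatMSC replicate 2, 3 or 4 the call of Mylk-203 was lost (limma adjusted p up to 0.0593).

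Mylk-201 held 20.7%, 41.2%, 46.7% and 41.8% of Mylk FPKM in the pMSC libraries and 16.6%, 23.1%, 15.4% and 16.2% in the iwatMSC libraries. The means were 37.6% ± 11.5 and 17.8% ± 3.55 (SD, n = 4), and the groups overlapped through pMSC replicate 1. The difference of 19.8 percentage points did not pass a two-sided exact permutation test (p = 0.0571, adjusted p = 0.343 over 12 shares). Of the 12 transcript shares tested in Mylk, Cald1, Cnn1 and Smtn, 0 passed, with the smallest exact unadjusted p at 0.0571 and none under 0.05.

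**Figure D3:**
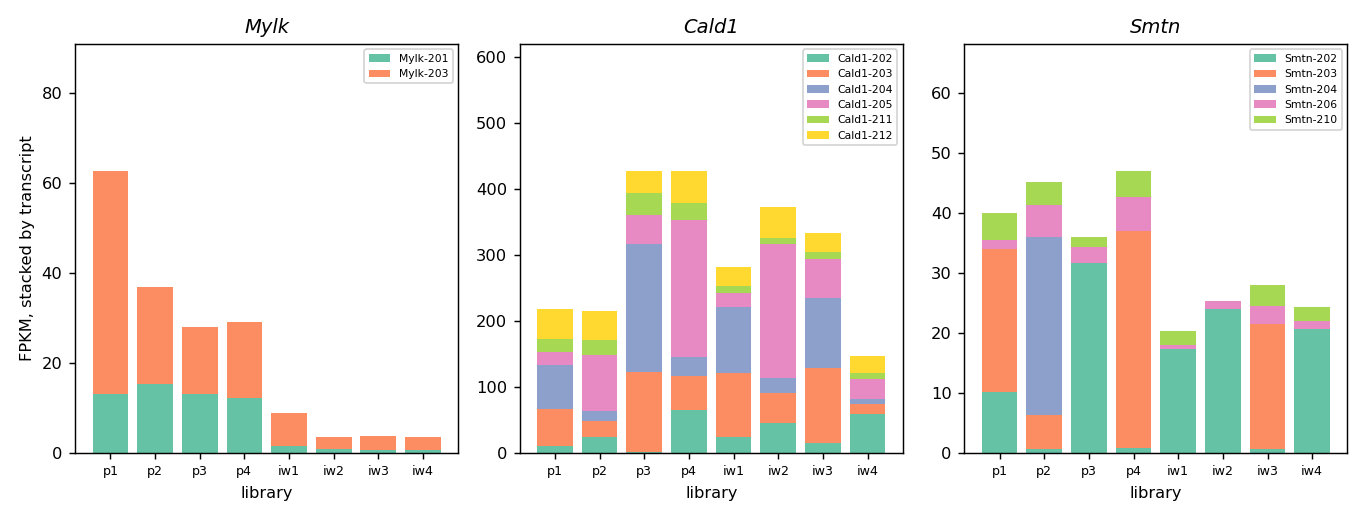
FPKM of the transcripts that hold at least 5% of Mylk, Cald1 and Smtn, stacked for each library (p for pMSC, iw for iwatMSC, with the replicate number). Mylk-201 is near constant over the pMSC libraries at 12.1 to 15.2 FPKM, while the division of Cald1 and Smtn among transcripts changes from library to library.

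The other actin-binding members could be divided among transcripts less well. Cald1-205, with the longest coding length of the main forms (2304 bases), was at 19.3, 84.4, 43.7 and 208 FPKM in pMSCs and at 20.3, 203, 60.0 and 30.2 FPKM in iwatMSCs, a spread within each group that exceeded the difference of the means. Cald1-211, which held 5.29% of Cald1, was at 20.1, 22.0, 33.5 and 25.3 FPKM in pMSCs and at 11.4, 9.75, 9.91 and 8.53 FPKM in iwatMSCs, without overlap and with a log2 fold change of 1.25 ± 0.16 (SE). In Smtn the transcript with the largest value changed between libraries. Smtn-204 was listed at 29.7 FPKM in pMSC replicate 2 and at 0 in the other 7 libraries, and Smtn-203 at 0 in pMSC replicate 3 and in iwatMSC replicates 1, 2 and 4, while total Smtn varied little. Of all 24686 transcripts tested, 5.54% passed in either direction. The leading transcripts of Actg2, Tagln, Myl9 and Lmod1 passed as higher in pMSCs (2.79% of all transcripts did). That of Lmod1 averaged 0.532 FPKM in iwatMSCs and was tested only through its pMSC level. Acta2-201 did not pass (adjusted p = 0.0578 by limma over all transcripts), although its FPKM are those of the gene. Myl9-201 no longer passed whichever 1 of the 8 libraries was left out (limma adjusted p up to 0.123), and Tagln-201 did not pass without pMSC replicate 1 or 2 or iwatMSC replicate 2 (up to 0.0703).

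With group means removed, 6 of the contractile genes varied together over the 8 libraries. Deviations of log2(FPKM + 1) from the mean of the group were taken over the 8 libraries, which removes the difference between the organs. The 15 pairs among Acta2, Actg2, Tagln, Cnn1, Myl9 and Lmod1 had Pearson r of 0.879 to 0.986, with a median of 0.95. Over all 45 pairs of members r lay between -0.872 and 0.986, with a median of 0.348. In pMSCs, replicates 1 and 2 both exceeded replicates 3 and 4 in these 6 genes and in Mylk (7 of 9 tested members, against 24.7% of all tested genes). In iwatMSCs, replicates 3 and 4 both exceeded replicates 1 and 2 in the 6 genes (against 18.6%), and 3.45% of all tested genes had both orders. The orders were noticed in the values of these genes. The 6 genes were picked with their values known, the points share 8 libraries, and the correlations are a description with no test.

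**Figure D4:**
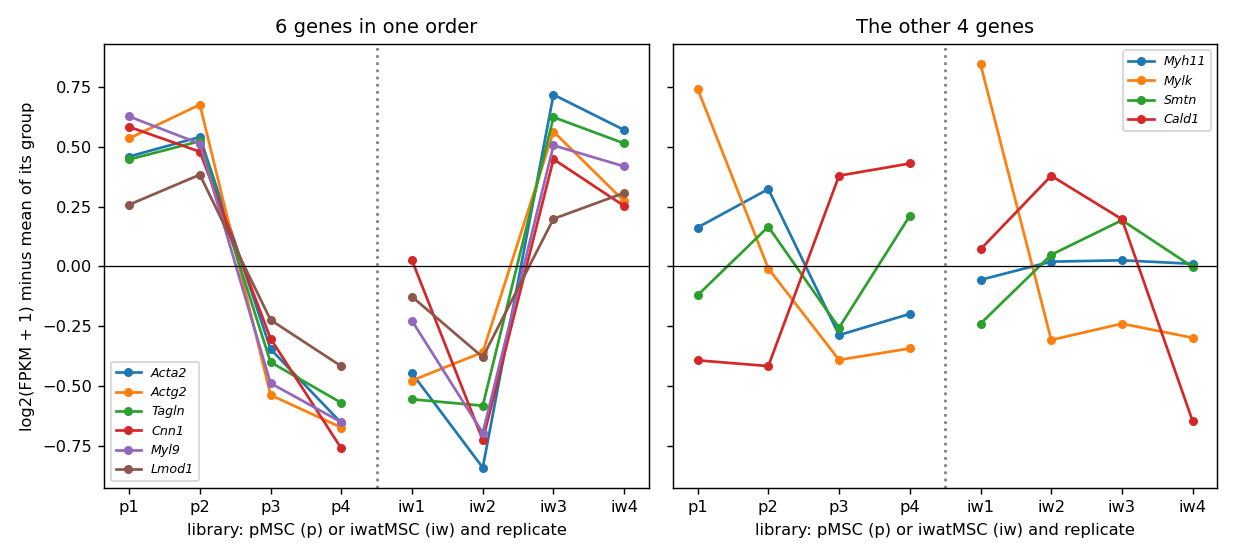
Deviation of log2(FPKM + 1) from the mean of its group for each library, with lines joining the libraries of a group only to guide the eye. Acta2, Actg2, Tagln, Cnn1, Myl9 and Lmod1 (left) lie above their mean in pMSC replicates 1 and 2 and in iwatMSC replicates 3 and 4, whereas Mylk, Smtn and Cald1 (right) follow other orders.

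With Acta2, r was 0.986 for Tagln, 0.968 for Myl9, 0.957 for Lmod1, 0.925 for Actg2 and 0.920 for Cnn1. Among the 13344 other tested genes these took ranks 1, 6, 11, 31 and 36, while Smtn, Mylk and Cald1 took ranks 4131, 5373 and 12942. An r of 0.9 was reached by 5 of the 8 other tested members and by 0.367% of the 13344 genes. These 5 genes were picked with their values known, so their ranks are a description. The Spearman rank correlation was 0.976 for Tagln and 0.714 to 0.786 for the other 4. Without pMSC replicate 4 and iwatMSC replicate 2, the libraries farthest from the median of the Acta2 deviations, r was 0.998 for Tagln and 0.843 to 0.952 for the other 4.

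The other members stood outside this pattern. Myh11, close to its floor, had r = 0.603 with Acta2 and its 2 highest libraries were pMSC replicates 1 and 2. Mylk (r = 0.105) was high in replicate 1 of each group, and Smtn had r = 0.225, which became 0.870 without pMSC replicate 4 and iwatMSC replicate 2. Cald1 ran the opposite way, with r = -0.743 with Acta2 (-0.576 without pMSC replicate 4 and iwatMSC replicate 2) and -0.872 with Lmod1. In pMSCs Cald1 was lowest in replicates 1 and 2. In iwatMSCs it was highest in replicate 2, where Acta2 was lowest, and lowest in replicate 4, while replicate 3, the highest in Acta2, was second highest in Cald1 (348 FPKM).

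**Figure D5:**
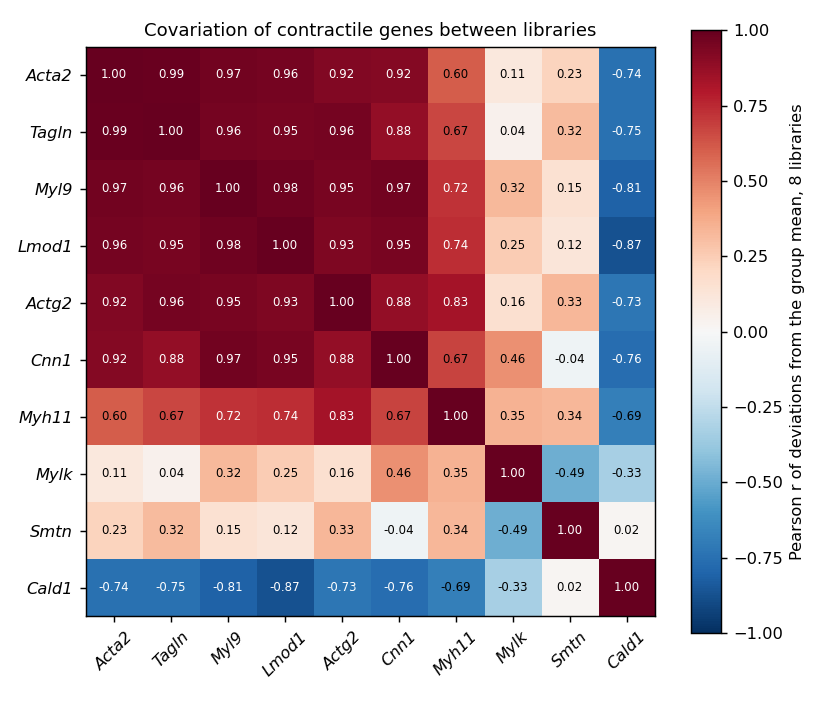
Pearson r between the deviations of each pair of contractile genes from their group means over 8 libraries, from -1 (blue) to 1 (red). The block of 6 genes at the upper left has r of 0.879 to 0.986, and pairs with Cald1 lie between -0.872 and 0.022.

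Other genes that varied with Acta2 were named by rule, as the 10 with the highest r among 8002 named genes with at least 5 FPKM in both groups. They were Smap2, Samd4, Rnd3, Tpm2, Serpinh1, P4ha3, Tfpi2, Lox, Actr10 and Tmem70, with r of 0.982 down to 0.936 over the 8 libraries. Tpm2, which encodes a tropomyosin of the thin filament, was at 183, 170.2, 134 and 128 FPKM in pMSCs and at 61.0, 50.4, 87.0 and 92.1 FPKM in iwatMSCs. In its values Tpm2 shared both the order of the libraries and the difference between organs (log2 fold change 1.10 ± 0.20 SE, limma adjusted p = 0.00493). Rnd3 was at 19.1, 18.3, 16.0 and 15.8 FPKM in pMSCs and at 15.4, 14.2, 19.9 and 19.5 FPKM in iwatMSCs, with no difference between the organs that passed the test (log2 fold change 0.01 ± 0.12 SE). Lox, the collagen cross-linking enzyme (r = 0.940), had a log2 fold change of -0.42 ± 0.16 (SE) that did not pass, and P4ha3, a collagen prolyl hydroxylase subunit, was lower in pMSCs (-1.51 ± 0.17 SE, limma adjusted p = 2.75e-04).

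Transcription factors and cofactors that control the contractile genes went both ways. Of 22 tested, 7 were higher in pMSCs and 3 lower, with a median log2 fold change of 0.07. Csrp1, which encodes a LIM protein of smooth muscle, was at 174, 169, 118 and 118 FPKM in pMSCs and at 50.1, 41.5, 48.9 and 47.5 FPKM in iwatMSCs, a log2 fold change of 1.58 ± 0.14 (SE). In pMSCs it too stood highest in replicates 1 and 2, but in iwatMSCs it varied little. Tcf21, a factor of visceral mesenchyme and fibroblasts, was at 11.1, 10.3, 8.71 and 8.52 FPKM in pMSCs and listed at 0 in the 4 iwatMSC libraries. Tcf21, counted among the 7, was thus tested only through its pMSC level. Klf4, known to repress smooth muscle genes, was lower in pMSCs (-1.20 ± 0.08 SE), as was Tbx18, a factor of mural cell progenitors (-2.15 ± 0.10 SE). Among those named after their values were seen, the cofactor gene Mrtfa was higher (0.77 ± 0.10 SE), Srf itself did not pass (0.20 ± 0.13 SE, limma adjusted p = 0.351), and Myocd, the muscle-restricted cofactor, was at 0.0903 FPKM or less in each library.

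Genes of calcium and cyclic nucleotide signalling, which regulate contraction, went both ways. Of 15 tested, 3 were higher in pMSCs and 3 lower. Mrvi1, which encodes the partner of the inositol trisphosphate receptor in smooth muscle relaxation, was at 4.95, 5.03, 4.56 and 4.58 FPKM in pMSCs and at 0.153, 0.111, 0.241 and 0.123 FPKM in iwatMSCs, so it was tested only through its pMSC level. The receptor genes Itpr1 and Itpr3 went apart, with log2 fold changes of 0.90 ± 0.17 and -0.71 ± 0.12 (SE), and the kinase gene Camk2d was lower (-0.94 ± 0.08 SE).

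Several genes of the structures that anchor actin filaments were higher in pMSCs. Of 22 tested genes of dense plaques, dense bodies and their filaments, 12 were higher and 1, Vim, was lower, with a median log2 fold change of 0.44. Des, the muscle intermediate filament gene, was at 18.1, 15.1, 11.8 and 19.7 FPKM in pMSCs and at 1.95, 2.73, 4.20 and 2.63 FPKM in iwatMSCs, a log2 fold change of 2.15 ± 0.20 (SE). Nexn, which encodes an actin-binding protein of muscle, and Itga1, a collagen receptor subunit, had log2 fold changes of 1.29 and 0.88. Of the 12 genes called higher, Itga1 and Itga7 (0.964 FPKM in iwatMSCs) were tested only through their pMSC level. Of 15 tested genes that mark TGF-β signalling and myofibroblasts, 4 were higher (Col3a1, Thbs1, Timp1 and Tgfb1i1) and 0 lower. The calls of Col3a1, Tgfb1i1, Tagln2 and of Npnt below each depended on single libraries, being lost without 7, 2, 1 and 6 of the 8 libraries in turn.

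Markers of mature smooth muscle and of pericytes went both ways. Of 8 tested genes of mature smooth muscle, 2 were higher in pMSCs (Jph2, tested only through its pMSC level, and Npnt) and 1 lower (Mustn1), with Cnn1 also in that list, and 7 of its 15 genes averaged under 1 FPKM. The pericyte list summed to 115 to 157 FPKM in pMSCs and to 146 to 173 FPKM in iwatMSCs. Of its 5 tested genes 1 was higher (Cspg4, log2 fold change 1.78 ± 0.15 SE) and 1 lower (Anpep, -1.69 ± 0.24 SE), and its defining gene Rgs5 was at 0.145 FPKM or less in each library. Of 16 relatives specific to striated muscle, 2 were tested. Mylk2, a kinase gene of skeletal muscle, was lower in pMSCs (-1.70 ± 0.25 SE), and the skeletal actin gene Acta1 did not pass (0.27 ± 0.33 SE).

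Transcripts of pancreatic acinar enzymes were also higher in pMSCs. All 11 tested of the 15 listed genes passed, and their sum was 352, 193, 65.2 and 84.8 FPKM in the pMSC libraries and 3.71, 2.76, 2.27 and 1.81 FPKM in the iwatMSC libraries. All but Cela1 (2.23 FPKM) averaged at most 0.337 FPKM in iwatMSCs and were tested only through their pMSC level, so their number is no support for the difference. The pMSC replicates 1 and 2 that were highest in Acta2, Actg2, Tagln and Myl9 were thus also highest in acinar transcripts. In iwatMSCs the acinar sum was near 0 and came mostly from Cela1, at 3.37, 2.29, 1.83 and 1.42 FPKM in replicates 1 to 4. The sum was lowest in replicates 3 and 4, in which the 4 contractile genes were high, but this order rests on Cela1. The part of acinar transcripts in the contractile values was not tested. Without pMSC replicates 1 and 2, Acta2 and Myl9 had log2 fold changes of 1.27 and 1.13 and did not pass (limma adjusted p = 0.121 and 0.0753). Cnn1 and Cald1 did not pass there either. Actg2, Tagln, Smtn, Lmod1 and Mylk passed, with log2 fold changes of 2.0, 1.58, 0.79, 1.41 and 2.44. Their limma adjusted p were 0.00799, 0.0439, 0.0271, 0.00801 and 0.00543.

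Markers of epithelium and mesothelium were higher in pMSCs as well. Of 7 tested of the 11 listed genes, 6 were higher (Wt1, Krt18, Krt8, Upk3b, Upk1b and Lrrn4), again tested only through their pMSC level, and Krt19 was lower (log2 fold change -1.41). The sum of the list was 36.1 to 53.2 FPKM in pMSCs and 5.78 to 14.8 FPKM in iwatMSCs. The simple epithelial keratin gene Krt8 was at 11.3, 9.48, 4.34 and 5.13 FPKM in pMSCs and listed at 0 in the 4 iwatMSC libraries. Krt8 and Krt18 were highest in pMSC replicates 1 and 2, like the contractile genes, while the mesothelial Upk3b, Upk1b and Lrrn4 were highest in pMSC replicate 4 (7.52, 6.22 and 6.60 FPKM). Epcam, a defining epithelial gene, was at 0.459 to 1.08 FPKM in pMSCs. The part of these transcripts in the contractile values was not tested.

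The other cell type lists held few genes that could be tested. Of the skeletal muscle list 2 of 13 were tested and 1 was higher (Des), of the endothelial list 2 of 10 were and 1 was lower (Tek), and of the leukocyte list 2 of 11 were and both were lower (Cd68 and Csf1r). Of the stromal list 11 of 12 were tested, with 2 higher (Eng and Pdgfra) and 3 lower (Dpt, Cd34 and Dcn).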

How the data were processed

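The authors' deposited values are FPKM of Ensembl transcripts and come from mRNA sequenced on BGISEQ and processed with STAR on GRCm38.p6 and StringTie, per the submitters' processing notes and the methods. The strand setting and annotation release are not given in the sources used here. StringTie divides reads among transcripts and similar genes, which can move FPKM between isoforms.

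Of 136535 transcripts, 136372 (99.9%) were matched to GENCODE M21 by identifier, whose coordinates and coding lengths are given, and FPKM were summed per gene. There were 0 columns without a sample. Groups came from the labels and replicate numbers from the order of the libraries. limma 3.58.1 (R 4.3.3; lmFit, eBayes with a trend, two-sided) was run on log2(FPKM + 1), computed from the deposited FPKM, of genes or transcripts averaging at least 1 FPKM. Benjamini-Hochberg adjustment covered all features tested, with calls under 0.05. The pseudocount shrinks the fold change of weakly expressed genes. Shares and ratios were compared by two-sided exact permutation tests in scipy 1.17.1. On simulated data with 13345 genes, 70.1%, 94.0% and 97.0% of genes changed 1.5-, 2- and 4-fold were recovered, with 12 false calls.

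The members, lists and rules were chosen with earlier results of these data known. The text names all members, up to 4 called genes of a list with the largest change (the 2 most abundant where none was called), the relatives in ratios, and the 10 genes closest to Acta2. Coding sequences were aligned with Biopython 1.88. A comparison of proteins was not run. Alternatives were other pseudocounts, filters, scalings, weights and tests, and leaving out libraries. A few listed genes and 1 list are not reported here.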

Additional observations from a re-analysis of the deposited data

Results flagged for a closer look

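In each group of 4 libraries, a highest or lowest value was singled out where its gap to the nearest other library took more of the range of the group than Dixon's 95% critical value allows. Of 170 groups looked at, 13 were singled out, where chance gives about 1 in 20. Among the members this was Mylk in iwatMSC replicate 1, at 8.79 FPKM, and its short transcript Mylk-203 in the same library, at 7.33 FPKM. In that library Col3a1 (267 FPKM) was above and Thbs1 (224 FPKM) below the other iwatMSC libraries. Transcripts of members that stood apart were Cald1-212 (47.3 FPKM) and Cnn1-205 (listed at 0.0) in iwatMSC replicate 2, Smtn-203 (20.98 FPKM) in iwatMSC replicate 3 and Smtn-204 (29.7 FPKM) in pMSC replicate 2. Among listed genes, Cspg4 (1.26 FPKM) and the acinar Cela2a (0.394 FPKM) stood apart in iwatMSC replicate 3, Krt18 (0.0443 FPKM) in iwatMSC replicate 4, Mustn1 (8.92 FPKM) in pMSC replicate 3 and the mesothelial Upk3b (7.52 FPKM) in pMSC replicate 4.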

How the results depend on the processing

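Under other pseudocounts, filters, scalings and weights, without a trend and without any single library, 6 to 8 members were higher and 0 lower, against 7 and 0 as reported. A mean of 5 FPKM or more removes Cnn1 and Lmod1 from the test. An unequal-variance test on FPKM of gene sums, adjusted over all genes, called 0 members, 1017 of all genes (551 higher and 466 lower) and, in the 9 pathway lists, 10 genes higher and 4 lower, against 35 and 12. On log2(FPKM + 1) that test gave 5 members, without Acta2 (adjusted p = 0.0764) and Myl9 (0.0626), 1428 genes (694 higher and 734 lower), and 19 and 7 genes of the lists. Without pMSC replicates 1 and 2, an alternative added after seeing the data, 1491 genes (793 higher and 698 lower), 22 list genes higher and 557 transcripts passed, against 2589, 35 and 1367. Leaving out single libraries gave 1802 to 2848 genes, 895 to 1479 lower genes and 871 to 1523 transcripts, with the fewest lower genes without iwatMSC replicate 3 and the fewest transcripts without pMSC replicate 1 (871) and iwatMSC replicate 4 (890). Without single libraries the log2 fold changes of Cald1 (-0.064 to 0.29), Cald1-203 (-0.54 to 0.42), Cald1-204 (-0.33 to 0.94) and Cald1-205 (-0.33 to 0.89) took both signs, the gene reversing without iwatMSC replicate 4, and the other reversal was that of the ratio of Myh11 to Myh9 (1.10 with a pseudocount of 0.1). None of these was called as reported, and the cause was not tested. As TPM, 1370 genes were higher and 1139 lower, against 1204 and 1385 as deposited, so the larger side changed with the scaling. No paired analysis was possible because the labels give no replicate numbers and nothing in the sources links single libraries of both organs. By the study's design both organs were nevertheless taken from the same mice. The unknown read depth limits the values of Myh11, Lmod1 and the minor transcripts, for which no counting error can be given.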
